A study of Homo sapiens with 9 samples.

Results

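Small interfering RNA (siRNA) against MRPL42 was compared with a non-targeting control siRNA in HCCLM3, an established human hepatocellular carcinoma cell line. The comparison takes 6 of the 9 libraries of the series, 3 per group, chosen by the group in their column names and lettered a, b and c. The other 3 libraries came from HCCLM3 cells given siRNA against UXS1, and are shown for reference. Every group was transfected with an siRNA, and no group was left untreated. All libraries come from 1 cell line, and nothing in the labels says that those of a group were separate cultures. The p-values therefore reflect only how far these libraries differ among themselves, and that spread may be technical. The sources used here do not give the dose, the time after transfection or the siRNA sequences.

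MRPL42 encodes a protein of the large subunit of the mitochondrial ribosome. That ribosome translates the few mRNAs encoded in mitochondrial DNA, whose products are core subunits of respiratory complexes and of ATP synthase; the other subunits are made in the cytosol from nuclear genes. In many cell types, disturbed mitochondrial translation is known to start the integrated stress response, in which ATF4 raises genes of amino acid synthesis and transport and of tRNA charging. Hepatocyte-derived cells also make cholesterol, through a pathway whose genes are driven by SREBP2.

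The libraries held between 15265959 and 22400560 estimated counts. Control library c stood apart: across genes, which are not independent replicates, its log2 CPM (counts relative to the TMM-scaled library total) correlated with the other 8 libraries at r = 0.951 to 0.961. Results are therefore given from a fit of 8 libraries without it, and beside them from all 9. In all 6 libraries KRT8 (2229 to 3444 CPM per kilobase of transcript) and KRT18 (911 to 1130), keratins of hepatic epithelium, were abundant. Of the hepatocyte markers, however, ALB lay at only 1.59 to 5.79 CPM per kilobase and AFP at 0.662 to 1.08, and GPC3 was listed at 0 throughout. PDGFRA, CDH5 and MS4A1, defining genes of fibroblasts, endothelium and B cells, were at 0 in the same libraries. The summed level of 7 fibroblast markers was 20.97 to 23.1 CPM per kilobase in the MRPL42 libraries and 20.2 to 104 in the controls, the upper end being LUM at 91.9 in control c. Over 5 endothelial markers the sum was 9.41 to 11.4 against 3.66 to 10.96 in the controls, and over 6 leukocyte markers 2.91 to 3.20 against 0.472 to 2.28. Most of the leukocyte sum in the MRPL42 libraries was CD79A, at 2.62 to 2.67 CPM per kilobase, against 1.97, 1.30 and 0.126 in controls a, b and c. The part of other cell types in the results was not tested.

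The targeted mRNA was only slightly lower. MRPL42 (chr12:93467488-93516213, plus strand, GRCh38) measured 104, 93.0 and 81.8 CPM in MRPL42 libraries a, b and c, against 100, 118 and 147 CPM in the controls and 131, 115 and 126 CPM in the UXS1 libraries. The 2 groups overlapped, because control library a lay below MRPL42 library a. The mean was 93.1 ± 11.3 CPM against 122 ± 23.4 CPM (SD, n = 3 each), and the exact two-sided permutation p was 0.2, where 3 against 3 libraries cannot go below 0.1. The log2 fold change of MRPL42 was -0.24 (95% interval -0.47 to -0.00, edgeR adjusted p = 0.252) without control c and -0.39 (edgeR adjusted p = 0.185) with all libraries. Against the UXS1 libraries, all of which lay above the 3 MRPL42 libraries, the exact permutation p for MRPL42 was 0.1. A lowering of MRPL42 mRNA therefore did not pass the threshold, and its protein was not measured. UXS1 mRNA was 140, 156 and 147 CPM against 144, 151 and 180 CPM in the controls (log2 fold change -0.01, edgeR adjusted p = 0.969).

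Within its own complex MRPL42 had the lowest fold change of the 52 large subunit genes tested, in both fits. This rank takes no account of transcript length and was not repeated with correction for it. MRPL42 is listed at 8251 bases, and length correction took the median of the other 51 genes to 0.03 without control c. None of the other 51 passed the test (0 of 51 higher, 0 of 51 lower), and their median log2 fold change was 0.22 without control c, where the median of all tested genes was -0.01. Of these 51 genes 45 had a value above 0. The largest was that of MRPL41, at 1.23 (edgeR adjusted p = 0.0951). MRPL43 measured 59.8, 38.8 and 44.6 CPM against 30.5, 30.5 and 30.4 CPM, so its groups did not overlap, but it did not pass (log2 fold change 0.64, edgeR adjusted p = 0.0727).

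**Figure D1:**
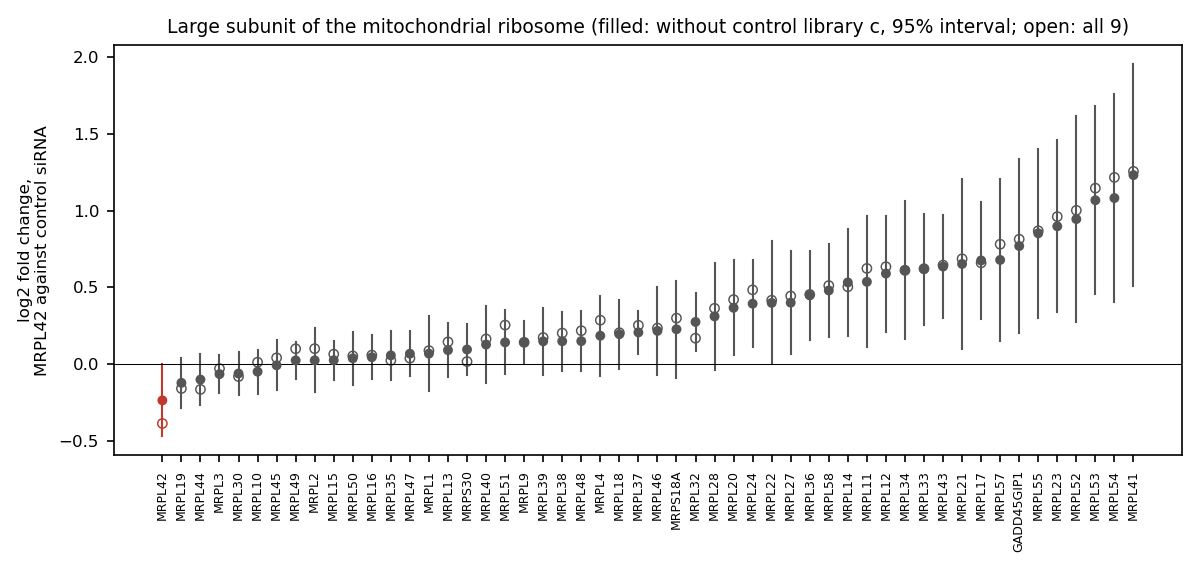
Log2 fold change (vertical axis) of each large subunit gene of the mitochondrial ribosome under MRPL42 siRNA, ordered by size. Filled points with bars are the fit without control library c with 95% intervals, and open points the fit of all 9 libraries; MRPL42, in red at the left, is lowest at -0.24, and the intervals widen to the right up to MRPL41 at 1.23.

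Across all genes, 169 of 12747 (1.33%) differed between MRPL42 and control siRNA when control c was left out. Of these 68 (0.533%) were higher and 101 (0.792%) lower, at an edgeR adjusted p below 0.05. With all 9 libraries, 0 of 12657 genes (0%) passed the same edgeR test. The lowest edgeR adjusted p was 0.0939, and 2561 genes had an unadjusted p below 0.05. Limma-voom called 0 genes there, and DESeq2 called 677 (522 higher, 155 lower). The changes were small, with a median size of 0.44 (log2) for the higher and 0.50 for the lower genes that were tested in both fits, and only 4 and 7 of them passed 2-fold. The calls rest on few controls: without control a as well, 7 genes passed, without control b as well 20, and without MRPL42 library b 1856. In bulk RNA, fewer cells that use a gene and less of its RNA per cell cannot be told apart.

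Control c, which took no part in those calls, could be set beside them, and it lay with controls a and b for some gene groups but not for others. Among 99 lower genes tested in both fits, c lay above all 3 MRPL42 libraries for 50 (50.5%), among them for 13 and below all 3 for 36 (36.4%). Over all 12652 genes tested in both fits, c lay above for 39.3% and below for 39.7%. Of the 68 higher genes, c lay below all 3 MRPL42 libraries for 52 (76.5%). In all, 102 of the 167 calls had control c on the side of a and b. For comparison, all 3 MRPL42 libraries lay above all 3 controls for 11% of all tested genes and below them for 10.5%.

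**Figure D2:**
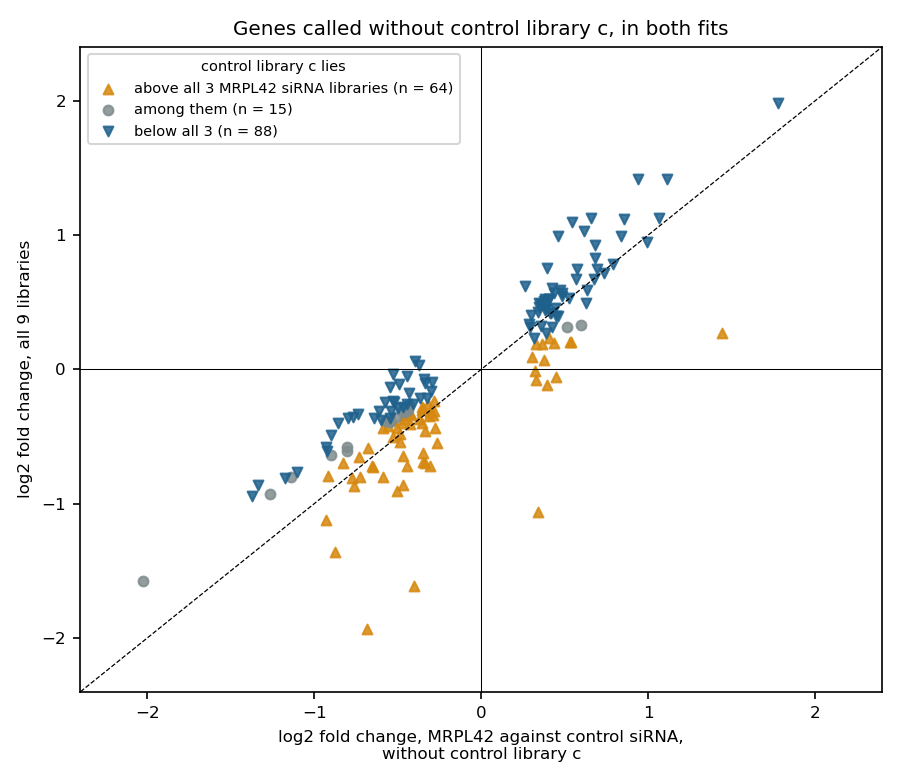
Log2 fold change of 167 called genes without control library c (horizontal axis) and with all 9 libraries (vertical axis); each point is a gene, and its shape and colour show where control library c lay relative to the MRPL42 libraries. Genes for which c lay with the other controls fall near or outside the dashed line of equal values, and the rest are pulled towards or across 0.

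Of the genes of the integrated stress response, 24 of the 39 tested fell against controls a and b, 0 rose and 15 did not pass, and the median log2 fold change was -0.50 against -0.01 for all genes. With all 9 libraries 0 of 39 passed in edgeR, and the median was -0.37. DESeq2 there called 8 of the 39 lower, and 155 genes lower in all. The count fell to 5 without control a, to 9 without control b, and to 12 in a fit of the control and MRPL42 groups alone. The fall did not exceed the spread among the controls for most of these genes: for 13 of the 24 genes control c lay below all 3 MRPL42 libraries, for 5 among them and for 6 above. The mean level of the list, in log2 CPM relative to the mean of all libraries, was 0.53 and 0.47 in controls a and b, -0.41 in control c, and 0.08, -0.22 and -0.07 in MRPL42 libraries a, b and c.

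The genes of asparagine, serine and glycine metabolism show this arrangement. ASNS (chr7:97852118-97872542, minus strand), asparagine synthetase, measured 243, 261 and 85.3 CPM in controls a, b and c and 130, 100 and 105 CPM in the MRPL42 libraries. All MRPL42 libraries lay below controls a and b and above control c. The log2 fold change of ASNS was -1.18 without c (95% interval -1.40 to -0.95, edgeR adjusted p = 0.00153) and -0.81 with it (edgeR adjusted p = 0.223). PSAT1, which makes phosphoserine, followed the same order, at 317, 329 and 134 CPM in the controls and 194, 155 and 164 CPM after MRPL42 siRNA (-0.92 without c, -0.60 with all libraries). PHGDH, the first enzyme of serine synthesis, measured 61.8, 57.4 and 13.8 CPM against 43.0, 26.1 and 34.4 CPM, and fell by 0.80 on the log2 scale without c. ALDH1L2, a mitochondrial folate enzyme, stood at 21.4, 23.3 and 8.43 CPM against 11.95, 9.05 and 10.3 CPM. The 7 genes that passed also without control a were NIBAN1, ASNS, ALDH1L2, PSAT1, TXNIP, SLC7A1 and ITIH2. For 6 of these 7, all but TXNIP, control c lay below the MRPL42 libraries.

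Members at lower levels fell too. ADM2, a secreted peptide of the calcitonin family, measured 32.8, 25.6 and 6.89 CPM in the controls and 13.1, 8.86 and 11.98 CPM after MRPL42 siRNA. It fell by 1.37 on the log2 scale, the most in the list, and -0.94 with all libraries. NIBAN1, a stress-induced regulator of translation, stood at 10.8, 10.9 and 1.75 CPM against 4.20, 4.46 and 4.28 CPM (-1.34). The glycine transporter SLC6A9 stood at 16.7, 16.4 and 6.47 CPM against 7.94, 6.01 and 6.81 CPM (-1.26), and control c lay among the MRPL42 libraries. The cationic amino acid transporter SLC7A1 had tight groups, at 98.0 and 98.5 CPM in controls a and b and 64.3, 65.2 and 65.5 CPM after MRPL42 siRNA, but control c was at 56.2 CPM.

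A part of the same list was lower than all 3 controls. STC2 (chr5:173314713-173329503), a secreted glycoprotein, measured 66.5, 58.2 and 62.8 CPM after MRPL42 siRNA against 102, 93.7 and 113 CPM in the controls. Its log2 fold change was -0.65 without c (95% interval -0.83 to -0.48, edgeR adjusted p = 0.00437) and -0.72 with all libraries, where STC2 shared the lowest edgeR adjusted p of any gene, 0.0939. GDF15, a secreted stress cytokine, stood at 73.5, 58.2 and 67.6 CPM against 111, 96.8 and 122 CPM (-0.65 without c, -0.73 with it). The leucine transporter SLC7A5 stood at 811, 794 and 841 CPM against 1067, 978 and 1325 CPM (-0.33), and CEBPG, a partner of ATF4, at 87.6, 79.5 and 76.1 CPM against 111, 111 and 92.1 CPM (-0.46). VEGFA, an angiogenic factor, was at 41.9, 36.7 and 38.5 CPM against 57.4, 52.6 and 48.3 CPM (-0.50). The groups did not overlap for any of these 5 genes, as for 9 of all 39 members in that direction. Of all tested genes 10.5% lay apart in that direction.

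Of the regulators, CEBPG fell, while ATF4 and DDIT3 did not pass the test. ATF4 mRNA measured 296, 224 and 259 CPM against 332, 331 and 183 CPM (log2 fold change -0.36 without c, edgeR adjusted p = 0.103). DDIT3, the proapoptotic factor CHOP, had a log2 fold change of 0.07 (edgeR adjusted p = 0.792).

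**Figure D3:**
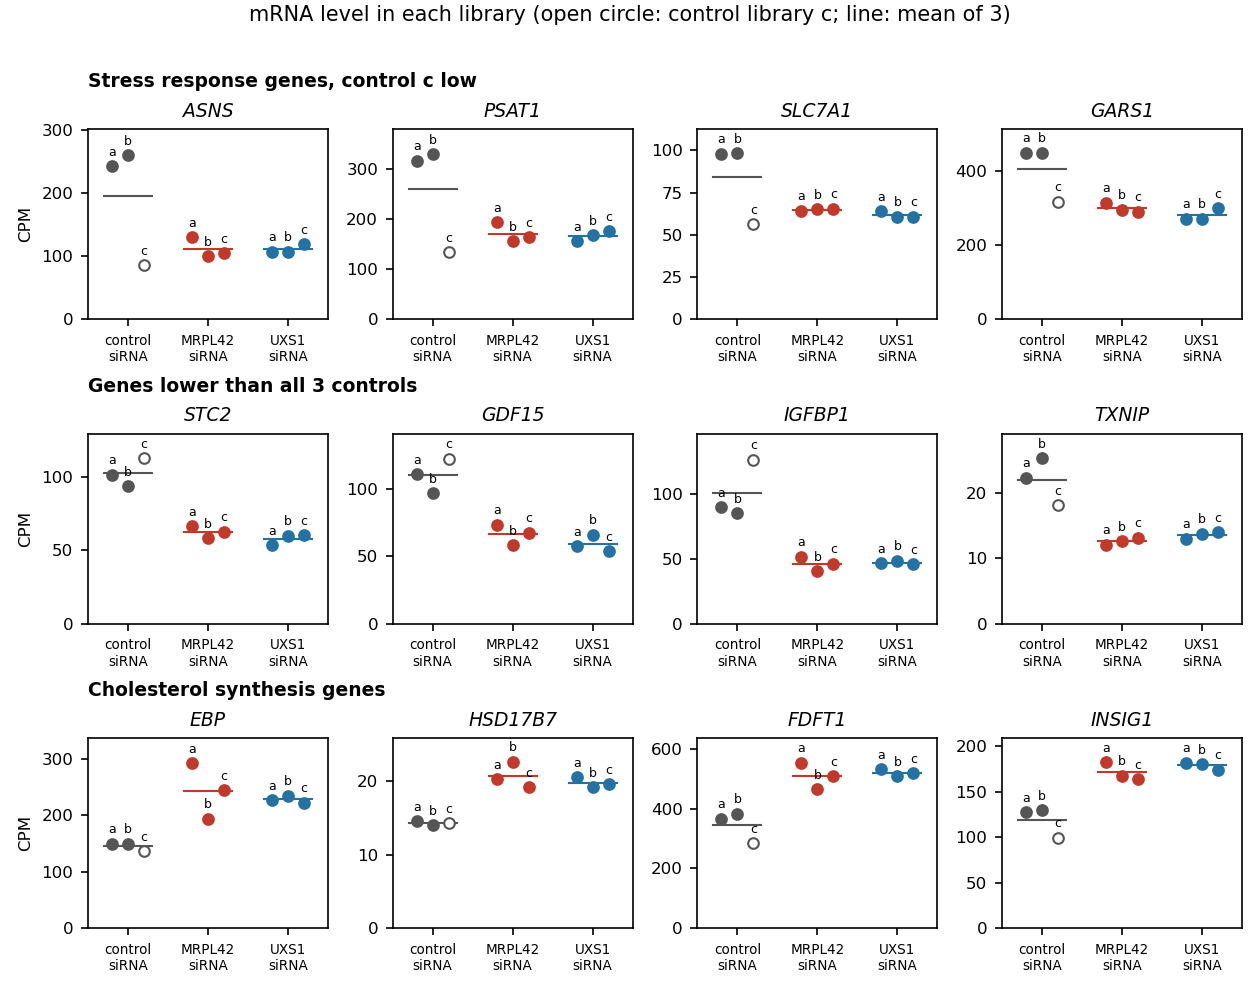
CPM (vertical axes, from 0) of 12 genes in each library of the control, MRPL42 and UXS1 siRNA groups; filled points are libraries, the open circle is control library c and lines are means of 3. In the top row control c lies near or below the MRPL42 libraries, in the middle row it lies with controls a and b, and in the bottom row it lies with or below them.

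Cytosolic aminoacyl-tRNA synthetases, which charge tRNAs for translation, were lower for 9 of 19 members without control c, with 0 higher. Their median log2 fold change was -0.32, and -0.18 with all libraries, where 0 of 19 passed in edgeR. DESeq2 there called 4 of the 19 lower, beside 155 lower genes in all. The 9 calls became 0 without control a and 2 without control b. GARS1, for glycine, measured 315, 296 and 291 CPM after MRPL42 siRNA against 450, 451 and 318 CPM in the controls (-0.59). EPRS1, for glutamate and proline, measured 229, 251 and 232 CPM against 335, 360 and 261 CPM (-0.56). TARS1 and MARS1, for threonine and methionine, fell by 0.53 and 0.54 on the log2 scale. The MRPL42 libraries lay below control c for 5 of the 9 called synthetases and above it for 4, MARS1 among the latter (268, 247 and 251 CPM against 211 CPM). MARS1 overlaps DDIT3 on the opposite strand, and strand was not stated, so reads of that stretch cannot be assigned with certainty.

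Promoters of the lower genes were examined for the motif that stress factors of the C/EBP and ATF families are known to bind, TGATGNAA, because these genes moved together. Windows from 250 bases before to 50 after each start came from RefSeq (GRCh38.p14), both strands were searched, and a gene counted where any listed start held the motif. It lay at 11 of 28 matched stress response and synthetase genes called lower (39.3%) and at 5 of 19 that were not called (26.3%). Both lists hold kinds of genes that ATF4 is known to raise, so their share beside that of all genes is no independent result. Among other genes called lower it lay at 8 of 55 (14.5%), among genes called higher at 1 of 54 (1.85%), and among all matched tested genes at 291 of 10267 (2.83%). Of all 35116 windows 3.62% held it. The 8 carriers outside both lists include the amino acid genes BCAT1 and SLC38A1. As ATF4 is known to raise genes of such kinds, their share is no independent result either. The following stretches, 5′ to 3′ on the gene's strand, show it in capitals: ASNS (minus strand, chr7:97872443-97872502), 3 genes outside both lists (BCAT1, minus strand, chr12:24949116-24949175; IL20RB, plus strand, chr3:136957881-136957940; SLC38A1, minus strand, chr12:46266513-46266572), and 2 synthetases that carry it on the other strand, read here as TTGCATCA (MARS1, plus strand, chr12:57488012-57488071; AARS1, minus strand, chr16:70289660-70289719).
ASNS: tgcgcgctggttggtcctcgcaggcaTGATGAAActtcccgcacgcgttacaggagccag
BCAT1: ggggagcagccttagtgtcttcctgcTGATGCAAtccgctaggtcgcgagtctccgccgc
IL20RB: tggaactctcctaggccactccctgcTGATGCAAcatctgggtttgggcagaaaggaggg
SLC38A1: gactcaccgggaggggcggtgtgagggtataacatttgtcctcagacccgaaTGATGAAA
MARS1: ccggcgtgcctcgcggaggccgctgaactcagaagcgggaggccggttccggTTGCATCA
AARS1: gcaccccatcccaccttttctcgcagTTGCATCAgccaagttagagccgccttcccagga
In ASNS the motif starts 68 bases before the listed start (-68). In BCAT1 and IL20RB it starts at -48 and -76, in SLC38A1 and MARS1 at -4, and in AARS1 at -187. A match is a sequence description and not a measured binding site. Of the other motifs searched, TGACTCA (AP-1) lay at 12% of genes called lower and 4.91% of tested genes (4.95% of windows). It lay at 0 of the 28 stress response and synthetase genes called lower. Among the other genes called lower it lay at 10 of 55 (18.2%), more than the 8 with TGATGNAA. GTGACGT (ATF6 or CREB-like) lay at 4.82% of genes called lower and 7.27% of tested genes (3.74% of windows).

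Other genes that carry the motif fell too. BCAT1, the cytosolic enzyme that transfers amino groups from branched-chain amino acids, measured 10.6, 11.1 and 9.24 CPM after MRPL42 siRNA against 15.99, 16.03 and 7.69 CPM in the controls, with control c again lowest. IL20RB, a cytokine receptor chain, stood at 12.3, 8.86 and 11.1 CPM, below all controls (18.0, 19.99 and 14.4 CPM). SLC38A1, a neutral amino acid transporter, was lower than every control by a wide margin, at 541, 550 and 496 CPM against 748, 770 and 737 CPM. Its log2 fold change was -0.53 without c (edgeR adjusted p = 0.00562) and -0.51 with all libraries (edgeR adjusted p = 0.0939).

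Other genes fell too, and for IGFBP1, TXNIP, GFPT1, DUSP6, ETV5 and TNFRSF10B the groups of 3 did not overlap. IGFBP1 (chr7:45888357-45893668), a liver-secreted binding protein of insulin-like growth factors, measured 51.9, 40.5 and 46.4 CPM against 90.3, 85.3 and 127 CPM. Its log2 fold change was -0.93 without c (95% interval -1.13 to -0.73, edgeR adjusted p = 0.00153) and -1.12 with all libraries. TXNIP, a glucose-induced inhibitor of thioredoxin and glucose uptake, stood at 12.01, 12.6 and 13.1 CPM against 22.2, 25.2 and 18.1 CPM (-0.92). GFPT1, the first enzyme of hexosamine synthesis, stood at 303, 304 and 277 CPM against 383, 407 and 384 CPM (-0.43). CDKN2B, an inhibitor of CDK4 and CDK6, fell by 0.73 on the log2 scale, and CPLX2, a complexin of vesicle fusion, by 0.77. DUSP6 and ETV5, both induced by ERK signalling, were the 2 of 25 immediate early and AP-1 genes that passed. DUSP6 measured 117, 137 and 122 CPM against 187, 188 and 278 CPM (-0.59), and ETV5 61.8, 63.9 and 65.2 CPM against 85.5, 83.8 and 72.6 CPM (-0.42). Of 16 hypoxia genes VEGFA and NDRG1 fell, and of 19 p53 targets TNFRSF10B, a death receptor, fell, at 108, 107 and 108 CPM against 137, 128 and 137 CPM.

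Some falls rest wholly on controls a and b. ITIH2, a plasma protein of the inter-alpha-trypsin inhibitor family, measured 140, 140 and 140 CPM in the MRPL42 libraries and 199 and 203 CPM in controls a and b, but 27.5 CPM in control c. That is a log2 fold change of -0.53 without c and -0.03 with all libraries. MT2A, 1 of 2 metallothioneins called lower among 3 tested and a metal-binding protein, stood at 6.72, 7.24 and 8.55 CPM against 15.1, 12.9 and 3.66 CPM, and BMP6, a hepatic signal for hepcidin, at 62.2, 63.6 and 60.1 CPM against 90.4, 83.0 and 26.8 CPM.

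Of the genes of cholesterol synthesis and uptake, 12 of 25 rose against controls a and b, 0 fell and 13 did not pass. Of the 25 members 24 had a value above 0, and the median log2 fold change was 0.35 against -0.01 for all genes. Control c lay below the 3 MRPL42 libraries for each of these 12 genes. The mean relative log2 CPM of the list was -0.20, -0.18 and -0.28 in the controls, 0.14, 0.10 and 0.11 in the MRPL42 libraries and 0.13, 0.10 and 0.09 in the UXS1 libraries, so the controls lay below both other groups. With all 9 libraries the median was 0.33, and 15 members had an unadjusted edgeR p below 0.05, as had 2561 of all 12657 genes. Of the list 0 passed in edgeR. DESeq2 called 12 of its members higher, and 522 genes higher in all. The edgeR count was 0 without control a, 0 without control b, 0 in a fit of the control and MRPL42 groups alone and 1 without MRPL42 library c. The list median stayed between 0.30 and 0.36 under each alternative run.

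Called members lay in early and late steps of the pathway. MVD, which makes isopentenyl diphosphate, measured 66.7, 57.9 and 67.6 CPM against 48.0, 43.2 and 40.1 CPM (log2 fold change 0.48). FDFT1, squalene synthase and the first step committed to sterols, measured 553, 465 and 508 CPM against 366, 383 and 283 CPM (0.44). HSD17B7, a reductase of the late pathway, stood at 20.3, 22.6 and 19.2 CPM against 14.5, 14.02 and 14.3 CPM (0.53 in both fits). With correction for transcript length HSD17B7 did not pass (0.34, edgeR adjusted p = 0.187). EBP (chrX:48521158-48528716), the sterol isomerase, had the largest change, at 293, 194 and 245 CPM against 150, 150 and 136 CPM. Its log2 fold change was 0.70 without c (95% interval 0.40 to 0.99, edgeR adjusted p = 0.0339) and 0.75 with all libraries (edgeR adjusted p = 0.132). NSDHL, a demethylating enzyme of the same stage, was steadier, at 118, 113 and 115 CPM against 88.2, 91.0 and 96.5 CPM (0.36).

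Of the regulators of the pathway, INSIG1 rose and SREBF2 did not pass. INSIG1, which holds SREBP in the endoplasmic reticulum and is itself induced by it, measured 182, 168 and 164 CPM against 127, 130 and 99.6 CPM (0.41). SREBF2, the gene of SREBP2, was at 0.03. Of 17 fatty acid synthesis genes, FADS2 and ACSS2 were higher. FADS2, a desaturase, stood at 383, 369 and 380 CPM against 288 and 284 CPM in controls a and b and 97.7 CPM in c (0.39), and ACSS2, an acetyl-CoA synthetase, at 80.6, 76.2 and 73.7 CPM against 58.9, 58.5 and 48.3 CPM (0.38).

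Promoters of these genes were searched for CCAAT, the motif of NF-Y, which is known to act beside SREBP at sterol genes. All 9 matched cholesterol genes that rose held it (100%), as did 7 of the 9 matched members that were not called (77.8%). CCAAT is common, at 43.4% of matched tested genes and 34.6% of all windows. It lay at 59.3% of all matched genes called higher and 50.6% of those called lower. Among stress response and synthetase genes it lay at 60.7% of those called lower and 36.8% of those not called. The same windows were searched for a sterol response element, as an exact sequence. It lay at 0 of the 9 matched cholesterol genes that rose and at 1 of the 9 not called, SREBF2. That sequence is rare, at 5 of 10267 matched tested genes (0.0487%). Control of these genes by SREBP was not tested. Shown for the repeats of CCAAT within short distances are EBP (plus strand, chrX:48521607-48521807), MVD (minus strand, chr16:88663092-88663260), FDPS (plus strand, chr1:155308680-155308865) and NSDHL (plus strand, chrX:152830825-152831062), with CCAAT, or ATTGG where it is on the other strand, in capitals.
EBP: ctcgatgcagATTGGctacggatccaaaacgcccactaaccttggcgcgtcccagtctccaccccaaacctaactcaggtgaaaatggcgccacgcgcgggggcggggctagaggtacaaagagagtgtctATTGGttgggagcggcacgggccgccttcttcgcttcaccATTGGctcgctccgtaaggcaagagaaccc
MVD: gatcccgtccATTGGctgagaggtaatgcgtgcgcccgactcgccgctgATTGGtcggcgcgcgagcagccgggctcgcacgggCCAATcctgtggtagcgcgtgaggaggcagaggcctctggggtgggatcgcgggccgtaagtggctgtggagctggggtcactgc
FDPS: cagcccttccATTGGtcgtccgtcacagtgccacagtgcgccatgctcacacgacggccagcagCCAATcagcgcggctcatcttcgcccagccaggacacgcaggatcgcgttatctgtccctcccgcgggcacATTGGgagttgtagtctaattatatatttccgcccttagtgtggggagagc
NSDHL: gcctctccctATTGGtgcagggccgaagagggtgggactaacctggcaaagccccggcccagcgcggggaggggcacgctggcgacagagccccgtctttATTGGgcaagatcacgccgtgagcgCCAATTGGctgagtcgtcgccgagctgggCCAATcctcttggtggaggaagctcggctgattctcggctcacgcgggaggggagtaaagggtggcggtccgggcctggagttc
EBP, MVD and FDPS each hold 3 copies and NSDHL 5, counting both strands, of which a pair overlaps in the palindrome CCAATTGG. FDPS, which makes farnesyl diphosphate, rose by 0.42 on the log2 scale.

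Other rises included targets of BMP and TGF-beta signalling and keratins. Of 15 TGF-beta and BMP targets 4 were higher, ID1, ID2, ID3 and TGFBI, and 0 lower, with a list median of 0.18; none of the 4 passed without control a, without control b or without MRPL42 library c. ID3, an inhibitor of helix-loop-helix factors, measured 304, 195 and 259 CPM against 138, 124 and 22.4 CPM (0.94 without c, 1.42 with all libraries). ID1 measured 482, 334 and 435 CPM against 268, 249 and 141 CPM (0.68, and 0.41 with length correction), and ID2 31.5, 26.6 and 30.8 CPM against 21.9, 21.4 and 24.2 CPM (0.45). KRT7, a keratin of bile duct epithelium, stood at 19.4, 15.8 and 18.5 CPM against 11.6, 10.98 and 2.07 CPM (0.66). For KRT19, another, control c was highest: 502, 439 and 493 CPM against 360, 342 and 547 CPM.

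Among the other large rises, AP1M2, an adaptor subunit of epithelial cells, measured 85.5, 52.6 and 75.2 CPM against 40.4, 38.9 and 28.1 CPM (0.84). TAGLN, an actin-binding protein, stood at 26.7, 20.6 and 25.97 CPM against 15.8, 14.6 and 10.98 CPM (0.68), and LSM3, of the spliceosome, at 58.7, 37.1 and 47.4 CPM against 27.7, 27.3 and 28.2 CPM (0.79). RASL11A (0.85) and SPANXD (1.07), both at or under 10 CPM, also did not overlap their controls. SPANXD was at 0.61 with correction for transcript length (edgeR adjusted p = 0.0561). IL32, a cytokine, rose by 0.63 (0.32 with length correction), at 67.6, 51.3 and 62.0 CPM against 40.2, 37.4 and 50.8 CPM.

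The largest called rise with at least 5 CPM shows how far control c can shift a value. FGFBP1, which releases fibroblast growth factors from the matrix, measured 7.17, 5.50 and 6.44 CPM after MRPL42 siRNA, 1.96 and 2.72 CPM in controls a and b and 11.1 CPM in control c. Its log2 fold change was 1.44 without c and 0.27 with it. DHRS9, a retinol dehydrogenase, stood at 66.2, 67.3 and 66.0 CPM against 54.1 and 50.4 CPM, with 311 CPM in control c, and its fold change went from 0.34 to -1.06.

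**Figure D4:**
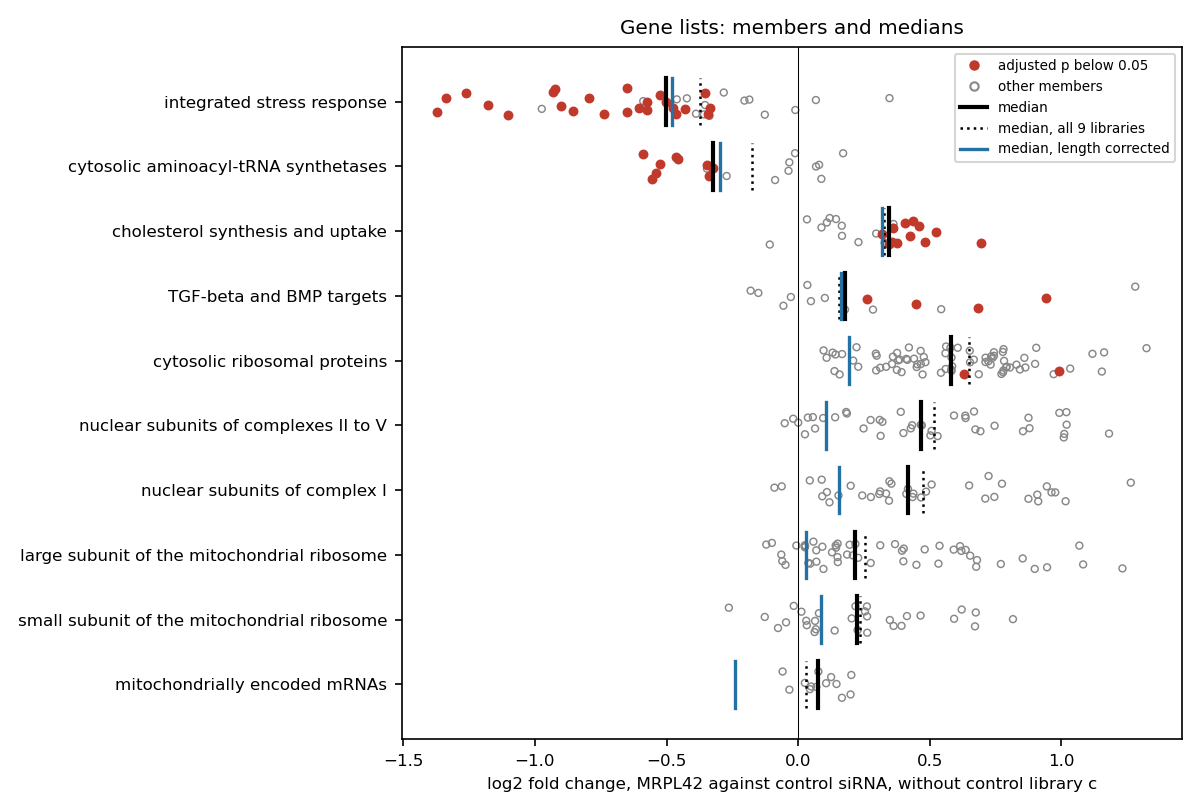
Log2 fold change without control library c (horizontal axis) of the members of 10 gene lists; red points passed an edgeR adjusted p of 0.05. Black bars are list medians, dotted lines the medians with all 9 libraries and blue lines the medians after correction for transcript length, which lowers the ribosomal protein median from 0.58 to 0.19 and leaves that of the stress response at -0.48.

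Nuclear genes of ribosomes and respiratory complexes lay above 0 almost throughout, yet few passed the test. Of 78 cytosolic ribosomal protein genes 2 were higher, RPS26 and RPL24, with a list median of 0.58. For 67 of them all MRPL42 libraries lay above all controls, as for 11% of all tested genes. RPL24 went from 0.63 to 0.14 with correction for transcript length and did not pass (edgeR adjusted p = 0.198). Nuclear subunits of complex I (37 genes) had a median of 0.42 with 0 called, and those of complexes II to V (41 genes) a median of 0.47 with 0 called. The small subunit of the mitochondrial ribosome had a median of 0.22 over 30 genes, with 0 called. RPS26 measured 444, 265 and 367 CPM against 184, 175 and 197 CPM; its family has near-identical pseudogene copies, so its count is uncertain. With MRPL42 library b and control c both left out, 72 of the 78 ribosomal protein genes and 28 of 37 complex I subunits were higher. So were 33 of 41 subunits of complexes II to V and 27 of 51 large subunit genes of the mitochondrial ribosome. Over all genes that fit called 1259 higher and 597 lower, where leaving out control c alone gave 68 and 101.

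These lists moved with transcript length and with 1 library. Their mean relative level was 0.54, -0.21 and 0.30 for ribosomal proteins in MRPL42 libraries a, b and c, and -0.32, -0.36 and -0.51 in the controls. The 547 transcripts under 1000 bases outside all lists had 0.36, -0.13 and 0.20, and -0.20, -0.27 and -0.36. Correction for length took the ribosomal protein median to 0.19, that of complex I to 0.15, that of complexes II to V to 0.11, and those of the large and small subunits of the mitochondrial ribosome to 0.03 and 0.09. The part of length in these differences beyond that correction was not tested. Among single calls, 13 of the 68 higher genes and 3 of the 101 lower ones did not pass after the correction. They include HSPE1, TOMM6, HSD17B7, RPL24, MANF, SPANXD and RBIS, a ribosome biogenesis factor at 56.2, 41.0 and 47.7 CPM against 30.1, 30.0 and 30.7 CPM.

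**Figure D5:**
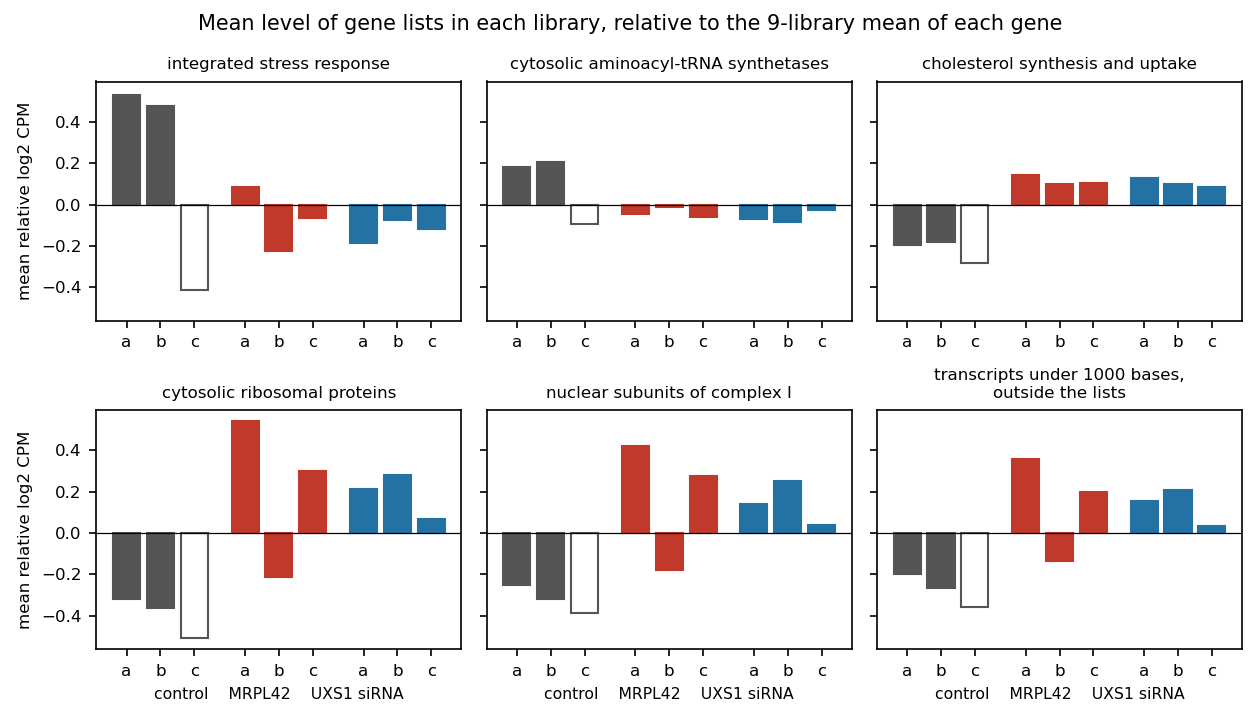
Mean log2 CPM of gene lists in each library, relative to the mean over all 9 libraries (bars; vertical axis, log2); open bars are control library c. The stress response is high in controls a and b only, cholesterol genes are low in all 3 controls, and ribosomal, complex I and short transcripts share a pattern in which MRPL42 library b lies below 0 and a is highest.

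The mRNAs that the mitochondrial ribosome translates did not pass the test: 0 of 13 were called and the median log2 fold change was 0.08. MT-CO1, a core subunit of cytochrome oxidase, was at 0.03 (95% interval -0.09 to 0.14), and MT-CO3, another, was at 5948, 5827 and 6024 CPM against 5266, 5565 and 5126 CPM (0.12, edgeR adjusted p = 0.23). The list's sign is not stable: the median was -0.24 with length correction and -0.02 without control a. Among 20 mitochondrial chaperones and proteases, HSPA9, the main matrix HSP70, fell, at 511, 542 and 520 CPM against 632, 635 and 583 CPM (-0.28). So did GRPEL2, its exchange factor, at 19.4, 18.8 and 18.5 CPM against 25.6, 26.7 and 22.4 CPM (-0.48). HSPE1, the cofactor of HSP60, was higher at 130, 118 and 133 CPM against 98.9, 91.0 and 96.0 CPM (0.42). Of 29 import genes TOMM6, of the outer membrane translocase, was the 1 that passed, and assembly factors, translation factors, mitochondrial tRNA synthetases, tricarboxylic acid cycle genes and fatty acid oxidation genes had no call.

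Of the 44 lists 26 had no call, among them heat shock, NRF2 antioxidant, interferon, proteasome, DNA replication, hepatocyte and epithelial-mesenchymal transition genes. Besides those described above, calls occurred in a few others. Of 20 glycolysis genes 2 were higher against controls a and b, but not against control c. ALDOC, an aldolase, measured 15.7, 13.3 and 14.8 CPM against 10.2, 10.2 and 14.96 CPM, and ENO2, an enolase, 17.4, 17.9 and 18.3 CPM against 12.95, 13.96 and 18.6 CPM. MANF was higher among 24 genes of the endoplasmic reticulum stress response (0.47), but did not pass with correction for transcript length (0.27, edgeR adjusted p = 0.0871). IL32 was the 1 of 23 inflammatory genes and SPC24 the 1 of 30 mitosis genes that passed. CD68, a lysosomal glycoprotein of macrophages and some other cells, was the 1 of 9 tested markers of other cell types that rose, at 109, 103 and 105 CPM against 71.9, 72.9 and 130 CPM.

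The same genes were set beside those of UXS1 siRNA, which shares the control libraries, so likeness of the 2 contrasts is no independent support. The 68 higher genes had a median of 0.44 for MRPL42 siRNA and 0.40 for UXS1 siRNA, and the 101 lower genes -0.50 and -0.51. In the direct test of MRPL42 against UXS1 siRNA, which does not use the controls' means, 0 of 12747 genes (0%) passed in edgeR without control c. There 682 had an unadjusted p below 0.05, the lowest edgeR adjusted p was 0.868, and DESeq2 called 0. For 64 of the 68 higher genes and 91 of the 101 lower genes the 95% interval of the difference held 0. Its median half-width was 0.16 and 0.14 on the log2 scale. These intervals are not adjusted for the number of genes tested, so larger differences could also go unseen in these libraries. The largest difference was 0.54 among the higher and 1.84 among the lower genes, and none passed. ASNS differed by 0.02 (95% interval -0.19 to 0.22), STC2 by 0.12 (-0.05 to 0.28), EBP by 0.10 (-0.15 to 0.36) and MRPL42 itself by -0.41 (-0.62 to -0.20, edgeR adjusted p = 0.868).

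The 5 genes with the smallest p between the targeting siRNAs were PLAU, ADH1C, RIMBP3C, TMT1A and LYZ. PLAU, the urokinase protease, measured 28.4, 28.1 and 30.1 CPM after MRPL42 siRNA and 23.3, 23.1 and 23.3 CPM after UXS1 siRNA (0.32, 95% interval 0.18 to 0.46, edgeR adjusted p = 0.868). Its controls, at 31.2, 29.4 and 34.3 CPM, overlapped the MRPL42 libraries.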

How the data were processed

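The authors deposited a table of estimated counts per gene for 9 libraries of poly(A) RNA. Between 83.6% and 84.9% of the nonzero values in a library were whole, and all were rounded for testing. Another 9 per-library columns of that table were not used. Submitters' processing notes name fastp, Bowtie2 and HISAT2, then edgeR, with the build hg38. Tool versions and roles, the annotation, the counting program and its strand setting: not given in the sources used here. Levels between genes were compared as CPM per kilobase, with the median length of a gene's principal transcripts in GENCODE.

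Genes were filtered (filterByExpr), scaled by TMM and tested in R 4.3.3 with the quasi-likelihood test of edgeR 4.0.16, two-sided, with 1 mean per group and Benjamini-Hochberg adjustment over all genes. One fit held all 9 libraries, the other 8, without control library c. Limma 3.58.1 (limma-voom) and DESeq2 1.42.0 were alternatives. The test was tested on simulated data. These held no library set apart from the rest and no trend with transcript length. They therefore cannot show how far the calls depend on single libraries or on length.

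The comparison, the 44 gene lists and the naming rule were chosen with earlier results of these data known. The rule takes both targets; the 15 largest called rises and the 15 largest called falls with at least 5 CPM and no overlap between groups, or where a fit called none the 10 smallest p; up to 4 called members per list or else 2; and 5 genes between the targeting siRNAs. Named outside it, after their values were seen, were AARS1, ATF4, BCAT1, BMP6, CEBPG, DDIT3, DHRS9, FDFT1, FDPS, GDF15, INSIG1, ITIH2, MRPL41, MT-CO1, NSDHL, PHGDH, SLC7A1, SLC7A5, SREBF2, UTP14A and UTP14C. Some genes that the rule names are not reported here. Coordinates are from GENCODE 29 on GRCh38, in which 20128 of 20379 gene identifiers were found. Counts come from PCR reads without molecular identifiers, so intervals cover the spread between libraries and not the number of molecules.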

Additional observations from a re-analysis of the deposited data

How the results depend on the processing

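No paired analysis was possible because the columns carry letters a, b and c that no label ties to the repeat numbers. With all 9 libraries the count of genes past the threshold was 677 in DESeq2, 1897 with limma-voom and library weights and 4 with length correction, and leaving out each library gave 0 to 810. Without control library c the 169 became 483 in DESeq2 (334 higher, 149 lower), 402 without the filter on low counts (225 higher, 177 lower), 36 with only the groups compared, 1694 with library weights (1031 higher, 663 lower) and 294 with length correction. Leaving out each library gave 7 to 1856 there, and leaving out MRPL42 library b with control c gave 1856. Of the 169 genes 158 were called again by DESeq2, 164 by limma-voom, 169 with library weights and 36 with only the groups compared. Between the targeting siRNAs the count was 0 under each alternative run. MRPL42 mRNA kept its negative sign in each. The sign turned for UXS1 mRNA (0.0039 with DESeq2 size factors, 0.0039 in DESeq2, and -0.048 to 0.024 when each library was left out, above 0 without control b, MRPL42 a or MRPL42 c). With length correction it turned for MRPS33 (-0.10), MT-CO3 (-0.23), MT-CO2 (-0.24), SSBP1 (-0.19), NDUFS5 (-0.069) and the median of mitochondrially encoded mRNAs (-0.24, and -0.017 to 0.18 when each library was left out). With all 9 libraries it turned for HSPA8 (-0.043), FGG (0.15), ADH1C (0.34), TMT1A (0.29) and LYZ (0.36, and -0.12 to 0.0038 when each library was left out). The cause was not tested. With all 9 libraries in the fit and DESeq2, chosen after seeing the data, list counts stand in the report. With 2 control libraries in the fit without c, the spread is set mostly by the other groups.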

Other observations

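Chosen after its values were seen, UTP14C, a retrocopy of the ribosome biogenesis gene UTP14A, had 36.41 and 34.68 estimated counts in control libraries a and b and 0 in control c and in all 3 MRPL42 libraries. In the UXS1 libraries it had 0, 0 and 0.65, where 3 counts is the floor. UTP14A itself had 1527, 1432 and 1519 estimated counts in the controls and 1148, 1234 and 1614 in the MRPL42 libraries. The genes are close in sequence and can share reads, so both counts are uncertain.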
